A study of Mus musculus with 17 samples.

Results

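The nuclei described here are the oligodendrocyte nuclei of the largest cluster that the authors deposited for the posterior mouse brain. They were chosen by 2 deposited columns, a predicted cell type of Oligodendrocytes and cluster number 0 in the clustering whose column name gives a resolution of 0.4. They number 37325 of 284074 nuclei (13.1%), and make up 49.6% of the 75282 nuclei labelled Oligodendrocytes. Cluster 0 was the largest of 20 clusters with 37762 nuclei, of which 437 carried another label and were left out. Each of 17 mice gave between 1258 and 3179 of these nuclei and between 1703832 and 5037182 UMIs, the molecule counts on which all values rest.

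The labels give all mice as female, with an age of 2.3 months, and as homozygous carriers of a knock-in of the human transferrin receptor (hTfR KI HOM), so the controls carried the human receptor too. OTV:Malat1 (n = 3), anti-TfR:Malat1 (n = 6), Malat1 ASO (n = 4) or saline (n = 4) was given intravenously in 4 weekly doses over 24 days, and brains were taken 72 hours after the last. The labelled dose was 50 mg per kg for both conjugates and 2 mg per kg for the free oligonucleotide, described as an equivalent oligonucleotide dose. The saline samples also carried the label of 50 mg per kg. The labels give 1 library per mouse, and all mice share this 1 genotype. Unless batch was held fixed, p-values therefore measure the spread between mice, libraries and deposited batches together. The series asked how far each form of delivery lowers Malat1.

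Oligodendrocytes wrap axons in myelin, a stack of lipid-rich membrane held together by proteins such as myelin basic protein (Mbp). They arise from precursors through a short newly formed stage, and they need much cholesterol and iron, the latter as a cofactor of lipid synthesis. Malat1, a nuclear RNA that encodes no protein, gathers at the speckles that hold splicing factors. An antisense oligonucleotide of the gapmer kind pairs with its target RNA, which RNase H1 then cuts, and binding to the transferrin receptor is a route by which large molecules cross the endothelium of brain vessels.

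The label was checked against its markers. Levels of genes other than Malat1 are given as counts per 1000000 UMIs of genes other than Malat1 (CPM), because Malat1 took a different share of the RNA in each group. In saline, Mbp stood at 4873 ± 680 CPM (SD, n = 4) and Mobp, another myelin protein gene, at 1308 ± 304. St18, a transcription factor gene of the lineage, stood at 4582 ± 138 CPM, and Prr5l at 3231 ± 160. In neurons of the same mice the means were 146, 28.7, 118 and 64.2 CPM, so each marker was far higher in cluster 0. Markers of other cell types were present at low levels and none was at 0 in every mouse. The summed level of 10 neuron markers was 585 to 762 CPM in saline, 673 to 960 in OTV:Malat1, 513 to 1118 in Malat1 ASO and 712 to 992 in anti-TfR:Malat1, against a saline mean of 13020 in neurons. The corresponding ranges over all 17 mice were 182 to 263 CPM for 7 astrocyte markers, 46.3 to 68.1 for 7 microglia markers and 5.40 to 17.1 for 8 vascular markers.

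A single library stood apart from the others in RNAs of X-linked genes. Xist, the noncoding RNA that coats the inactive X chromosome of female cells, had 2 UMIs in cluster 0 of Malat1 ASO replicate 1 and 2318 or more in each of the other 16 mice. Its level there was 0.508 CPM, against 1110 to 1531 CPM elsewhere. Tsix, its antisense partner, had 1 UMI against 142 to 600. The Y-linked genes Ddx3y, Uty, Kdm5d and Eif2s3y together had 0 UMIs in cluster 0 of that mouse, and at most 2 in any other. Kdm6a, an X-linked gene that is known to escape inactivation, stood at 238 CPM against 304 to 398. Over all nuclei of that mouse Xist had 35 UMIs, so the difference was not limited to oligodendrocytes. For Malat1 ASO against saline, the change and single value of Malat1, the share of low nuclei and the share of nuclei in cluster 0 are given with and without this mouse. Without it edgeR again called 0 genes other than Malat1 in that comparison. Group ranges and means, list counts, DESeq2 counts and the within-batch values include it.

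Cluster 0 stood between clusters 2 and 15 in UMIs per nucleus. Its median was 1457 UMIs, and 5% of its nuclei lay below 1075 and 5% above 2040. The 29228 Oligodendrocytes nuclei of cluster 2 had a median of 945 UMIs and the 6603 of cluster 15 one of 2477. Of Oligodendrocytes nuclei with 750 to 999 UMIs, 5.00% were in cluster 0 and 94.9% in cluster 2. Of those with 1500 to 1999 UMIs, 93.1% were in cluster 0, and of those with 2000 to 2999, 31.4% were in cluster 0 and 59.2% in cluster 15. The remaining Oligodendrocytes nuclei were 1130 in cluster 17, 474 in cluster 18, 430 in cluster 13 and 92 in 8 clusters of under 50. Doublets by the authors' call made up 1.39% of cluster 0, 0.174% of cluster 2, 29.7% of cluster 15 and 44.2% of cluster 17. They made up 75.7% of cluster 18, where Csf1r, a microglial receptor gene, stood at 268 CPM in saline against 1.4 CPM in cluster 0, and 0.698% of cluster 13. Of the nuclei of cluster 0, 2681 (7.18%) had a barcode that also occurred in another library, against 7.16% of all nuclei.

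**Figure D1:**
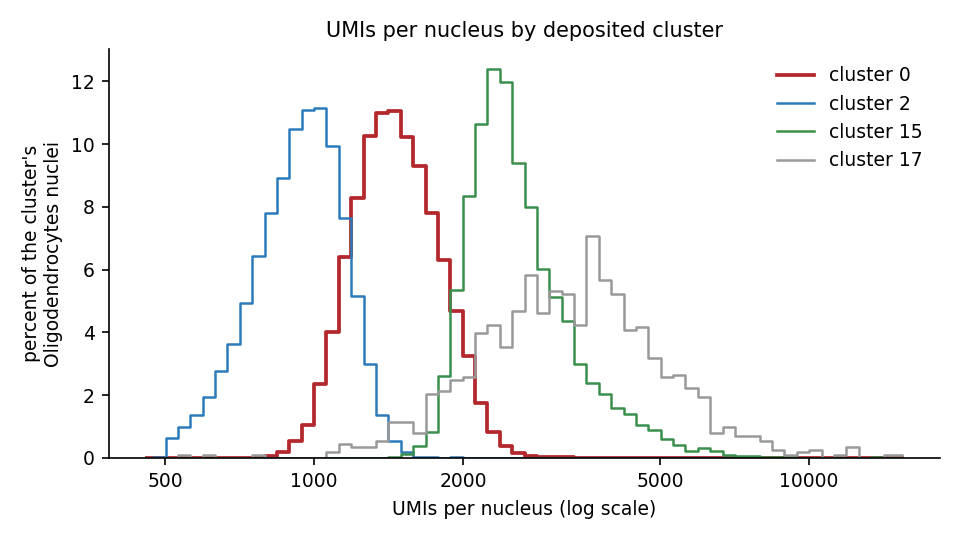
UMIs per nucleus (x axis, log scale) against the percent of each cluster's Oligodendrocytes nuclei (y axis), 1 line per cluster. Cluster 0 peaks near its median of 1457, between cluster 2 (median 945) and cluster 15 (2477), while cluster 17 reaches higher totals (3271).

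In gene content cluster 0 was close to clusters 2 and 15 and far from clusters 17, 13 and 18. The comparison used saline means of genes at 50 CPM or more in either set and is a description only, since the authors made the clusters from these nuclei. Between clusters 0 and 2, 2 of 4048 genes (0.0494%) differed by more than 2-fold, and between clusters 0 and 15, 30 of 3952 did (0.759%). The share was 31.0% against cluster 17, 42.6% against cluster 13 and 18.4% against cluster 18. The 4 markers were ordered alike, lowest in cluster 2 and highest in cluster 15. St18 was 3985 CPM in cluster 2, 4582 in cluster 0 and 5055 in cluster 15, and Prr5l was 2742, 3231 and 3295 CPM. Mbp was 4337, 4873 and 5827 CPM, and Mobp 1096, 1308 and 1720. The step from cluster 0 to either neighbour had the same sign in 17 of 17 mice for Mbp, Mobp and St18, whereas that of Prr5l to cluster 15 had it in 11.

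The genes lowest in cluster 0 relative to the other Oligodendrocytes nuclei included several known from precursors and newly formed cells. Tnr, which encodes the matrix protein tenascin-R, was at 14.7 ± 2.99 CPM in saline (n = 4) against 680 ± 135 in the other nuclei, a log2 ratio of -5.44. Sox6, a transcription factor gene of precursors, was at 6.27 against 200 CPM, and Vcan, the gene of the proteoglycan versican, at 6.18 against 78.2. Itpr2, a calcium channel gene used as a marker of newly formed cells, was at 14.6 against 148 CPM. Pooled over saline mice, Tnr reached 7444 CPM in cluster 17 and 5910 in cluster 13, against 14.9 in cluster 0, 20.4 in cluster 2 and 11.4 in cluster 15. Others among the lowest were Gm4876, 9630013A20Rik, Ppfibp1, Csgalnact1 and Gpc5, with log2 ratios from -3.86 to -2.83. These genes were chosen for their ratios and met the 50 CPM minimum through the other nuclei, so their direction is a description.

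Genes higher in cluster 0 than in the other Oligodendrocytes nuclei differed by less. The largest log2 ratio was 0.47 for Gm44866, at 219 against 158 CPM, followed by 0.45 for 9330111N05Rik. Galnt7, which encodes an enzyme of O-linked glycosylation, stood at 240 against 191 CPM, Lama2, a laminin subunit gene, at 430 against 344, and Spock3, a proteoglycan gene, at 891 against 714. The others of the 10 were 5033421B08Rik, Gm49003, Slc7a15, Efemp1 and A230001M10Rik, with ratios from 0.31 to 0.38.

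Against cluster 2 alone, cluster 0 had more Enpp6 (184 against 94.1 CPM), a choline phosphodiesterase gene of newly formed and early myelinating cells, and more Aff3 (71.2 against 30.5) and Cldn14 (83.0 against 41.9). Enpp6 was higher still in cluster 15, at a pooled saline level of 291 CPM against 179 in cluster 0 and 97.8 in cluster 2. The genes lower in cluster 0 than in cluster 2 were mostly of ribosomal and respiratory chain proteins. Among them were Ndufb11 (51.7 against 85.3 CPM), Cox5a (83.0 against 130), Rpl36 (36.8 against 59.0) and Rpl15 (64.4 against 103). Meg3, a noncoding RNA of neurons at a pooled saline level of 8369 CPM there, was at 398 CPM in cluster 0, 536 in cluster 2 and 261 in cluster 15. Whether RNA from other cells took part in these differences was not tested. Against cluster 15 alone, Prom1 (4.53 against 52.2 CPM), Kank1 (23.0 against 127) and Nckap5 (113 against 381) were lower in cluster 0, and the small GTPase gene Rhoj (79.4 against 39.5) was higher.

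Within cluster 0 the finer clustering, at a resolution of 1.0, gave sub-cluster 1 with 19744 nuclei (median 1298 UMIs), sub-cluster 3 with 16796 (median 1672) and sub-cluster 14 with 779 (median 2026). Pooled over saline mice, Mbp was at 4776 and 5099 CPM in sub-clusters 1 and 3, St18 at 4399 and 4677, and Opalin, a membrane protein gene of mature cells, at 453 and 431. Of 2 mature states, 1 gene each is given here, and both genes were detected in cluster 0 without being particular to it. Ptgds, the prostaglandin D2 synthase gene, stood at 1774 ± 784 CPM in saline, and Klk6, a protease gene, at 16.8 ± 5.34. Pooled over saline mice, Ptgds was at 2236 CPM in cluster 2, 1942 in cluster 0 and 1225 in cluster 15. Klk6 was at 7.98, 17.3 and 45.3 CPM in the same order.

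Ptgds also varied most between mice among the abundant genes followed. Over the 17 mice it ranged from 668 to 2975 CPM, a coefficient of variation of 36.6%, the lowest in an anti-TfR:Malat1 mouse and the highest in Malat1 ASO replicate 1, the mouse that lacked Xist. The coefficient was 11.1% for Mbp, 18.5% for Mobp, 4.81% for St18, 6.21% for Prr5l, 6.86% for Mag and 10.4% for Mog. For Mbp, Mobp and St18 the range of each group overlapped that of every other group. The overlap was narrow for St18 between OTV:Malat1 (3971 to 4535 CPM) and Malat1 ASO (4482 to 4831 CPM). For Prr5l the lowest and the highest mouse were both in OTV:Malat1.

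The share of Oligodendrocytes nuclei that fell in cluster 0 showed no difference between treatments that passed the test. It was 37.4% to 59.5% in saline, 35.1% to 54.8% in OTV:Malat1, 33.1% to 59.2% in Malat1 ASO and 34.3% to 63.0% in anti-TfR:Malat1. The group means in that order, 48.9%, 45.8%, 47.6% and 50.6%, differed by less than the spread between mice, with exact two-sided permutation p from 0.524 to 0.83 and an adjusted p of 0.83 in all 4 comparisons. The 3 mice of deposited Batch1, the only batch with no OTV:Malat1 mouse, lay between 59.2% and 60.3%, whereas Batch4 spanned 33.1% to 63.0%. Without the mouse that lacked Xist, Malat1 ASO minus saline changed from -1.27 to -5.13 percentage points (exact p 0.514). Clusters 0, 2 and 15 differ in UMIs per nucleus, and the part of sequencing depth in this share was not tested.

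Malat1 fell steeply in cluster 0 of OTV:Malat1 mice and less in anti-TfR:Malat1 mice. The gene lies at chr19:5795690-5802672 on the minus strand (GRCm38, annotated as a lincRNA by GENCODE M21). In saline it took 12%, 10.1%, 10.7% and 7.67% of the UMIs of cluster 0 in the 4 mice. In Malat1 ASO mice it took 11.0%, 8.90%, 11.6% and 6.97%, values that overlap those of saline. In anti-TfR:Malat1 mice it took 6.28%, 6.71%, 8.63%, 7.51%, 6.02% and 5.68%, of which 5 of 6 lay below every saline mouse. In OTV:Malat1 mice it took 1.57%, 1.22% and 1.25%, all far below every mouse of the other groups.

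The mean was 10.1% ± 1.81 (SD, n = 4) in saline and 1.35% ± 0.191 (n = 3) in OTV:Malat1, which is 13.3% of saline. It was 6.81% ± 1.09 (n = 6) in anti-TfR:Malat1, or 67.2% of saline, and 9.62% ± 2.12 (n = 4) in Malat1 ASO, or 95%. Without the mouse that lacked Xist, the Malat1 ASO value changed from a fitted log2 fold change of -0.07 to -0.14. In bulk sums of nuclei such as these, fewer nuclei with Malat1 and less Malat1 per nucleus cannot be told apart, and the values per nucleus are therefore given further on.

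**Figure D2:**
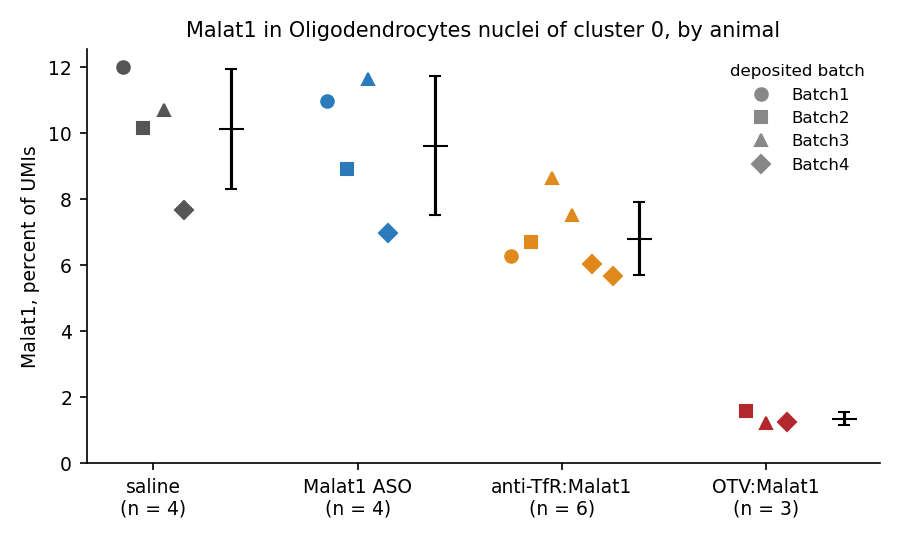
Malat1 as percent of UMIs in cluster 0 (y axis) by treatment (x axis). Each point is 1 mouse, its shape the deposited batch, and the bars are mean ± SD; the 3 OTV:Malat1 mice sit between 1.22% and 1.57%, below all others.

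The fit of UMI sums over 12874 genes (edgeR's quasi-likelihood test, all 17 mice) gave a Malat1 log2 fold change of -3.09 (SE 0.20) for OTV:Malat1 against saline, with a Benjamini-Hochberg adjusted p of 7.8e-09. Against anti-TfR:Malat1 the OTV:Malat1 change was -2.45 (SE 0.18, edgeR adjusted p 1.7e-07). Anti-TfR:Malat1 against saline gave -0.64 (SE 0.15) with an unadjusted edgeR p of 2.96e-04, which did not pass after adjustment over all genes (0.9999). Malat1 ASO against saline gave -0.07 (SE 0.16, edgeR adjusted p 1.0). The 2 comparisons of OTV:Malat1 share its 3 mice, and the comparisons with saline share the saline mice.

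Tested as a single value per mouse, log2 CPM of Malat1 over all UMIs differed by -0.57 between anti-TfR:Malat1 and saline, with an exact two-sided permutation p of 0.0190 (0.0476 adjusted over the 4 comparisons). It differed by -2.33 between OTV:Malat1 and anti-TfR:Malat1, with an exact p of 0.0238, the smallest these group sizes allow (0.0476 adjusted). For OTV:Malat1 against saline the difference was -2.90 and the exact p 0.0571, again the smallest that 3 mice against 4 can give. Malat1 ASO against saline gave -0.08 with an exact p of 0.686, and -0.16 (exact p 0.514) without the mouse that lacked Xist. The adjusted p of 0.0476 lay just under the threshold. For anti-TfR:Malat1 against saline it stayed under it in 1 of 10 fits that each left out a mouse, the fit without saline replicate 4 (-0.70), and the difference ranged from -0.70 to -0.48. For OTV:Malat1 against anti-TfR:Malat1 it stayed under in 0 of 9 such fits, whose smaller groups allow only larger p-values.

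The conjugate differences had the same sign in each deposited batch that held both groups; what a batch stands for is not given in the sources used here. Batch by batch, OTV:Malat1 minus saline was -2.70, -3.13 and -2.61 on the log2 scale in Batch2 to Batch4. Anti-TfR:Malat1 minus saline was -0.93, -0.60, -0.41 and -0.39 in Batch1 to Batch4. Malat1 ASO minus saline was -0.13, -0.19, 0.12 and -0.14, with no common sign, and the value of Batch1 is that of the mouse that lacked Xist. With labels moved only within batches, the exact p for anti-TfR:Malat1 against saline was 0.0556 and that for OTV:Malat1 against anti-TfR:Malat1 0.111, each the smallest its design allows.

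Malat1 was also compared within ranges of depth. With cluster 0 split into 3 equal parts by depth, at 1335 and 1596 UMIs, OTV:Malat1 had 13.3% of the saline mean in the shallowest nuclei, 13.01% in the middle and 14.7% in the deepest. For anti-TfR:Malat1 the values were 64.8%, 67.4% and 69.5%. Those depths include Malat1 UMIs, which were fewer in the conjugate groups. Split instead on the UMIs of other genes, an alternative added after the data were seen, at 1238 and 1474, OTV:Malat1 had 12.99%, 12.99% and 13.8% of the saline mean and anti-TfR:Malat1 66.7%, 66.8% and 67.8%. Sub-clusters 1 and 3 retained 12.9% and 13.4% of saline in OTV:Malat1, and 66.0% and 67.7% in anti-TfR:Malat1. The edgeR fit within sub-cluster 3 alone gave -3.06 for OTV:Malat1 against saline (SE 0.19, adjusted p 3.2e-10).

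Per nucleus, nearly the whole of cluster 0 fell below a Malat1 cut set on saline nuclei in OTV:Malat1 mice, and 24.1% to 59.5% did in anti-TfR:Malat1 mice. Each nucleus was thinned at random to 500 UMIs, which left out 0 nuclei, and Malat1 UMIs were counted. The median nucleus held 57, 49, 51 and 37 Malat1 UMIs in the saline mice, and 53, 43, 56 and 33 in Malat1 ASO mice. It held 31, 33, 43, 37, 30 and 28 in anti-TfR:Malat1 mice and 6, 5 and 5 in OTV:Malat1 mice. Averaged over mice, the 10th and 90th percentiles were 15.2 and 50.95 in anti-TfR:Malat1 against 34.5 and 67.75 in saline, so both ends were lower. A nucleus was called low when it held under 32 Malat1 UMIs, a cut set at the 10th percentile of saline with equal weight per mouse.

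Low nuclei made up 0.846%, 5.47%, 2.61% and 28.5% of cluster 0 in saline mice, so that saline replicate 4 stood apart. They made up 2.57%, 12.5%, 0.963% and 40.9% in Malat1 ASO mice, where replicate 4, of the same Batch4, was also the highest. In anti-TfR:Malat1 mice they made up 52.0%, 45.2%, 24.1%, 37.2%, 54.5% and 59.5%, and in OTV:Malat1 mice 99.8%, 99.9% and 99.9%. The difference was 36.1 percentage points for anti-TfR:Malat1 against saline (exact permutation p 0.0190, adjusted 0.0476) and 54.5 for OTV:Malat1 against anti-TfR:Malat1 (exact p 0.0238, adjusted 0.0476). With labels moved only within batches neither passed: the exact p was 0.0556 and 0.111, each the smallest its design allows, and 0.222 adjusted. OTV:Malat1 against saline gave 90.5 points (exact p 0.0571) and Malat1 ASO against saline 4.88 (exact p 0.629). The cut was set on the saline mice and kept while labels were moved, so the p-values against saline are not strictly exact. Without saline replicate 4 the anti-TfR:Malat1 difference was 42.4 points at the same cut (exact p 0.0238), and 50.3 with the cut set anew on the other saline mice. With a mouse left out, the adjusted p passed in 1 of 10 fits of anti-TfR:Malat1 against saline and in 0 of 9 of OTV:Malat1 against anti-TfR:Malat1. With a mouse left out, the Malat1 ASO difference ranged from -4.02 to 16.6 points. It was 8.77 without replicate 1 of that group (exact p 0.457) and -4.02 without replicate 4 (exact p 0.8). Counted without thinning, as nuclei with under 6.4% Malat1, the low shares ran from 0.26% to 27.0% in saline, 99.8% to 99.9% in OTV:Malat1 and 23.2% to 60.3% in anti-TfR:Malat1.

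Relative to the mean, nuclei of anti-TfR:Malat1 mice were spread more than those of saline mice, in a measure chosen after the data were seen. From the 10th to the 90th percentile, nuclei of saline replicate 2 held 34 to 68 Malat1 UMIs, those of anti-TfR:Malat1 replicate 6 held 10 to 45, and those of OTV:Malat1 replicate 2 held 2 to 11. The variance divided by the mean was 5.25 to 6.79 in anti-TfR:Malat1, 2.99 to 4.44 in OTV:Malat1, 2.98 to 4.00 in saline and 2.51 to 3.67 in Malat1 ASO. All 6 anti-TfR:Malat1 mice lay above every mouse of the other groups in this measure. The difference from saline was 2.30 (exact permutation p 0.00952, the smallest possible, adjusted 0.0381), and OTV:Malat1 minus anti-TfR:Malat1 was -2.25 (exact p 0.0238, adjusted 0.0476). With labels moved only within batches neither passed, at an exact p of 0.0556 and 0.111, each the smallest its design allows. Other measures of spread ordered the groups differently. The 90th minus the 10th percentile was 27 to 38 UMIs in saline and 32 to 39.7 in anti-TfR:Malat1, a difference of 2.53 (exact p 0.381), and their ratio was highest in OTV:Malat1, at 5.5 to 7.5. Malat1 ASO minus saline in variance over mean was -0.24 (exact p 0.543), and -0.37 (exact p 0.4) without the mouse that lacked Xist. The saline median, taken over nuclei with equal weight per mouse, was 49 UMIs. In anti-TfR:Malat1 mice 6.57% to 33.4% of nuclei reached it, and in OTV:Malat1 mice 0.136%, 0.0315% and 0%, the last being 0 of 1320 nuclei.

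**Figure D3:**
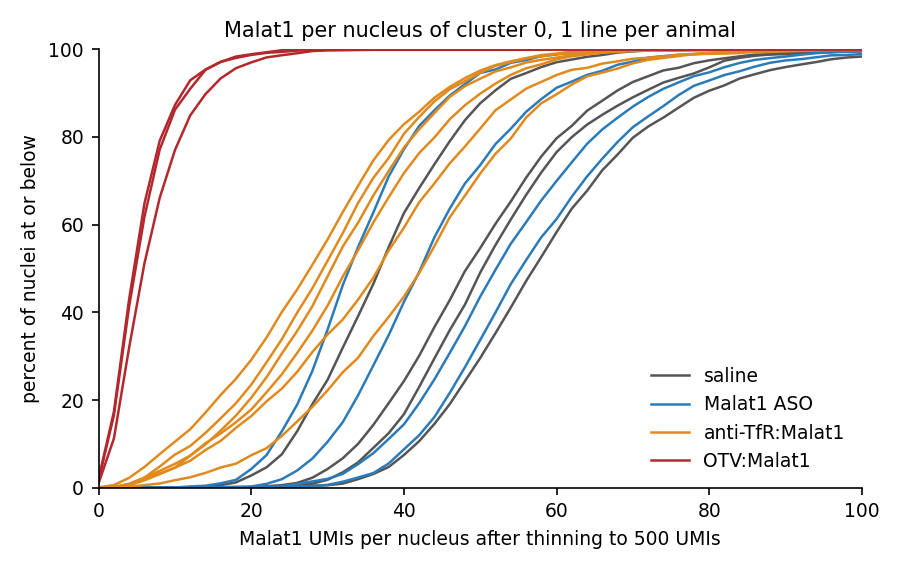
Percent of cluster 0 nuclei (y axis) at or below a given number of Malat1 UMIs after thinning to 500 (x axis), 1 line per mouse, coloured by treatment. OTV:Malat1 lines rise at the far left (medians 5 to 6), and anti-TfR:Malat1 lines (medians 28 to 43) lie between them and most saline lines (37 to 57), with some overlap.

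Among the Oligodendrocytes of OTV:Malat1 mice, those of cluster 17, and nuclei of cluster 13 that carried precursor markers, had Malat1 levels nearer to saline than those of cluster 0. The log2 difference in Malat1 between cluster 0 and the other Oligodendrocytes nuclei was 0.01, -0.02, -0.04 and -0.05 in saline mice, and -0.51, -0.78 and -0.41 in OTV:Malat1 mice, with no overlap. Its group difference was -0.54 for OTV:Malat1 against saline (exact permutation p 0.0571, adjusted 0.0762) and -0.50 against anti-TfR:Malat1 (exact p 0.0238, adjusted 0.0762), so neither passed the adjusted threshold. Anti-TfR:Malat1 mice lay between -0.14 and -0.04, and their difference from saline was -0.05 (exact p 0.0571).

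By cluster, Malat1 in OTV:Malat1 mice was 12.6% of saline in cluster 2 and 15.4% in cluster 15, close to the 13.3% of cluster 0. In cluster 17 it was 79.8% of saline, at 6.86% ± 1.2 of UMIs (n = 3) against 8.60% ± 2.74 (n = 4), a range that overlaps saline. That saline mean includes the mouse of Batch1, at 11.3%, a batch with no OTV:Malat1 mouse. In Batch2 to Batch4, cluster 17 of OTV:Malat1 mice held 6.34%, 8.24% and 6.01%, against 8.91%, 9.45% and 4.78% in saline, with no common sign. In cluster 13 it was 75.1% of saline, but only 2 saline mice, of Batch1 and Batch2, had the minimum of 20 nuclei (6.63% and 4.94% of UMIs). The saline mice of Batch3 and Batch4, with 18 and 19 nuclei, held 4.98% and 3.86%. OTV:Malat1 mice of Batch2 to Batch4 held 4.35%, 5.07% and 3.62%. In cluster 18, where 75.7% of nuclei were doublets by the authors' call, Malat1 in OTV:Malat1 mice was 25.8% of saline. The markers of cluster 13 went against its label: pooled over saline mice it had 122 CPM of Mbp and 7.64 of Mog, which encode myelin proteins, against 4969 and 1450 CPM in cluster 0. Pdgfra, a receptor gene of oligodendrocyte precursors, stood at 691 CPM there against 3.03 in cluster 0. Cluster 17 had the highest levels of the newly formed markers Enpp6 (958 CPM) and Bcas1 (4035 CPM) among the 6 clusters compared, and 44.2% of its nuclei were doublets by the authors' call. Gpr17, a receptor gene of committed precursors, was instead highest in cluster 13, at 306 CPM against 175 in cluster 17. The log2 difference between cluster 0 and cluster 17 was -2.35 ± 0.38 in OTV:Malat1, -0.25 ± 0.10 in anti-TfR:Malat1, 0.28 ± 0.27 in saline and 0.25 ± 0.07 in Malat1 ASO. Against cluster 17 alone the OTV:Malat1 minus anti-TfR:Malat1 difference was -2.10 (exact p 0.0238, adjusted 0.0476) and that of anti-TfR:Malat1 minus saline -0.53 (exact p 0.00952, adjusted 0.0381). Against cluster 2 alone the corresponding differences were 0.00069 (exact p 0.952) and 0.07 (exact p 0.0762), with no gap of the size seen against all other Oligodendrocytes nuclei. The authors made these clusters from the same nuclei, which the tests do not take into account. Single clusters were among 8 alternatives to the main contrast with all other Oligodendrocytes nuclei, which did not pass. Each alternative was adjusted over the 4 comparisons only. Without the mouse that lacked Xist the Malat1 ASO mean against cluster 17 was again 0.25. In neurons, Malat1 averaged 6.4% of UMIs in saline and 4.28% in OTV:Malat1, a difference that was not tested.

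**Figure D4:**
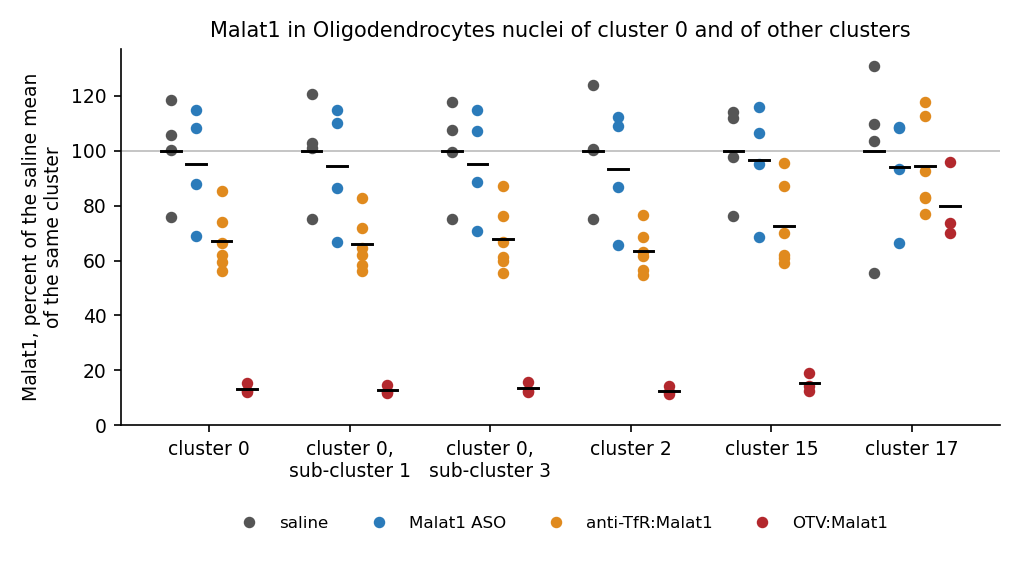
Malat1 as percent of the saline mean of the same nuclei (y axis) in cluster 0, its 2 larger sub-clusters and clusters 2, 15 and 17 (x axis); points are mice and short bars are group means. OTV:Malat1 lies at 12.6% to 15.4% in all but cluster 17, where it is 79.8%.

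Within a shared range of depth, Malat1 was lower in OTV:Malat1 than in saline in both cluster 0 and cluster 2. The range counts Malat1 UMIs, depth was not matched further within it, and the falls were not compared by a test. Among nuclei of 1000 to under 1500 UMIs, Malat1 in cluster 0 was 9.91% ± 1.77 in saline and 1.30% ± 0.154 in OTV:Malat1. In cluster 2 it was 11.3% ± 2.20 and 1.41% ± 0.190.

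No gene other than Malat1 passed the threshold in cluster 0. For OTV:Malat1 against saline edgeR called 1 of 12874 genes (0.00777%), for OTV:Malat1 against anti-TfR:Malat1 also 1 (0.00777%), and 0 (0%) in each of the comparisons of anti-TfR:Malat1 and Malat1 ASO with saline. Genes other than Malat1 at an unadjusted edgeR p under 0.05 numbered 373, 459, 305 and 161 in that order, or 2.90%, 3.57%, 2.37% and 1.25% of genes. DESeq2 likewise called 0 genes other than Malat1 in all 4 comparisons.

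The gene nearest to the threshold was Saa3, an acute-phase serum amyloid gene, which is named here after its values were seen. It had 16, 15, 9 and 9 UMIs in cluster 0 of saline mice and 1, 2 and 1 in OTV:Malat1 mice. Summed over mice, its level in OTV:Malat1 was 0.120 of that in saline (95% exact counting interval 0.0313 to 0.326, which covers counting error only). The edgeR adjusted p was 0.0528. It passed in 3 of 17 fits that each left out a mouse, all without a mouse of Malat1 ASO, a group outside this comparison. The edgeR adjusted p was 0.00897 without replicate 1 of that group, the mouse that lacked Xist, and 0.0483 and 0.0286 without replicates 3 and 4. Without the authors' doublets it was 0.0468, and over all Oligodendrocytes nuclei 0.0285. In CPM, saline mice lay between 3.596 and 4.43, OTV:Malat1 mice between 0.349 and 0.594, anti-TfR:Malat1 mice between 2.16 and 3.23 and Malat1 ASO mice between 1.09 and 4.57. The edgeR log2 fold change against saline was -0.49 (SE 0.30, unadjusted p 0.110) for anti-TfR:Malat1 and -0.49 (SE 0.33, unadjusted p 0.185) for Malat1 ASO. In the Oligodendrocytes nuclei outside cluster 0, OTV:Malat1 against saline gave -1.50 (edgeR adjusted p 0.971).

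**Figure D5:**
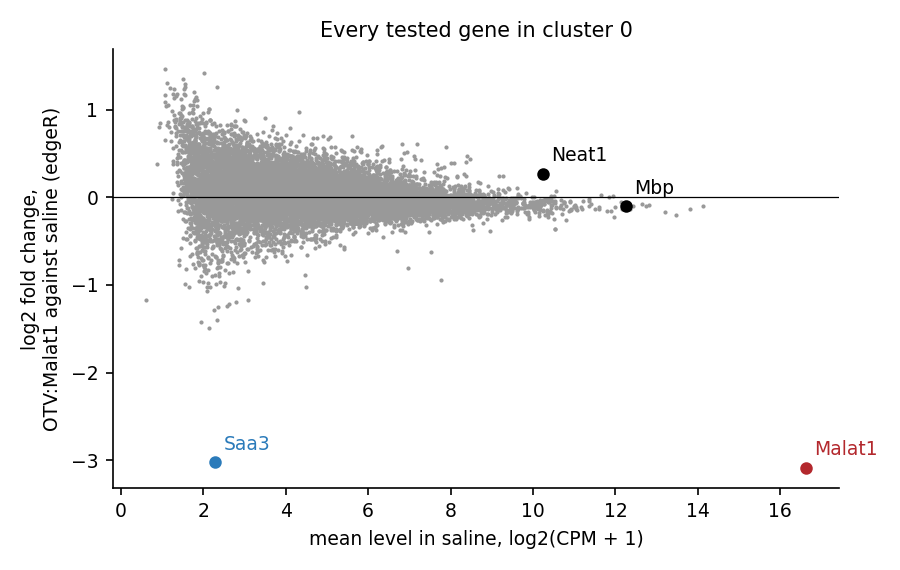
Mean level in saline, log2(CPM + 1) (x axis), against the edgeR log2 fold change of OTV:Malat1 against saline (y axis) for the 12874 genes tested in cluster 0; each point is a gene. Malat1 (-3.09) and Saa3 (-3.02) lie apart from the rest, while Mbp lies at -0.10 and Neat1 at 0.27.

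Genes of myelin and of oligodendrocyte identity were not called in either direction. Of 20 myelin genes, 0 passed in any of the 4 comparisons, and their median log2 fold change for OTV:Malat1 against saline was -0.08 beside 0.01 over all genes. Mbp was 4355 to 5872 CPM in saline and 4222 to 5262 in OTV:Malat1, with an edgeR log2 fold change of -0.10 (SE 0.13). Mobp gave -0.22 (SE 0.20) and Prr5l 0.03 (SE 0.10). Of 11 regulator genes, 0 passed; St18 gave -0.14 (SE 0.09), Zeb2, a repressor gene needed for myelination, -0.07 (SE 0.09), and Zfp536 -0.14 (SE 0.10).

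Stage and state markers were likewise not called. Of 8 precursor markers 0 passed, with 4 estimates above and 4 below 0 and a median of 0.00046 for OTV:Malat1 against saline. Lhfpl3 gave -0.22 (SE 0.19) and Ptprz1, a receptor phosphatase gene, 0.09 (SE 0.22). The highest was that of Cspg4, the gene of the NG2 proteoglycan, at 21.4 ± 5.70 CPM in saline and 32.2 ± 7.74 in OTV:Malat1, with 0.53 (SE 0.20, edgeR unadjusted p 0.0142, adjusted 0.994). Of 8 committed and newly formed markers 5 were tested and 0 passed, with 2 estimates above and 3 below 0; Enpp6 gave 0.18 (SE 0.16) and Bcas1 -0.05 (SE 0.09). Of 5 genes of the Klk6 state 0 passed, with a median of 0.26 for OTV:Malat1 against saline, and Klk6 itself gave 0.42 (SE 0.36). All 6 genes of the Ptgds state had negative estimates, with a median of -0.12 and 0 called; Ptgds gave -0.26 (SE 0.37) and Grm3, a glutamate receptor gene, -0.15 (SE 0.10). Of 8 reactive oligodendrocyte genes 6 were tested and 0 passed, with 4 estimates above and 2 below 0; Il33, an alarmin gene, gave -0.09 (SE 0.11).

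Metabolic lists had small median estimates, though single genes reached further. Of 22 cholesterol synthesis genes, 17 had positive and 5 negative estimates for OTV:Malat1 against saline, with a median of 0.08 and 0 called. These estimates ran from -0.11 to 0.44. Srebf2, the transcription factor gene that drives the pathway, gave 0.04 (SE 0.11) and Msmo1, a sterol oxidase gene, 0.22 (SE 0.15). Of 14 iron genes 10 were tested and 0 passed. For OTV:Malat1 against saline their estimates ran from -0.35 to 0.29 with a median of -0.03, 4 above and 6 below 0. Trf, the transferrin gene, stood at 1516 ± 275 CPM in saline and 1637 ± 132 in OTV:Malat1 (edgeR log2 fold change 0.07, SE 0.11). Tfrc, the mouse transferrin receptor gene, was at 13.9 ± 2.90 CPM in saline, 11.3 ± 2.20 in OTV:Malat1, 12.9 ± 2.56 in anti-TfR:Malat1 and 11.8 ± 3.38 in Malat1 ASO, with -0.35 (SE 0.24) for OTV:Malat1 against saline. Whether reads of the human knock-in sequence were counted under this symbol is not stated by the labels.

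Genes tied to Malat1's own surroundings were also not called. Neat1, the paraspeckle RNA whose gene neighbours Malat1, was 1014 to 1366 CPM in saline and 1355 to 1656 in OTV:Malat1, with 0.27 (SE 0.13, edgeR unadjusted p 0.0463, adjusted 0.994). In anti-TfR:Malat1 it was 861 to 1346 CPM, and OTV:Malat1 against anti-TfR:Malat1 gave 0.33 (SE 0.12, edgeR unadjusted p 0.0104, adjusted 0.995). Of 26 genes of speckle, paraspeckle and SR splicing proteins, 21 had negative estimates for OTV:Malat1 against saline, with a median of -0.09 and 0 called. Against the same saline mice, 20 were negative in anti-TfR:Malat1 and 19 in Malat1 ASO. For OTV:Malat1 against saline, Luc7l2 gave 0.01 (SE 0.12), Srrm2 0.08 (SE 0.10) and Pnisr -0.14 (SE 0.09). Of 8 genes of RNase H and nuclear RNA decay 0 passed, and Xrn2, a nuclear exonuclease gene, gave -0.02 (SE 0.11). Of 9 nuclear noncoding RNAs other than Malat1, 0 passed.

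Stress lists gave no call. Of 19 interferon response genes in the matrix 7 were tested, 1 was at 0 in every mouse, and 0 passed; Stat2, a mediator of the response, gave 0.00 (SE 0.16) for OTV:Malat1 against saline. Of 16 p53 targets 12 were tested and 0 passed, and Mdm2, which encodes the p53 ligase, gave -0.11 (SE 0.09). Of 13 heat shock and unfolded protein genes 8 were tested and 0 passed, and Hspa5, the chaperone gene of the endoplasmic reticulum, gave 0.26 (SE 0.25). For OTV:Malat1 against saline, interferon genes had 5 positive and 2 negative estimates, p53 targets 8 and 4, and heat shock genes 6 and 2. Their medians were 0.12, 0.12 and 0.16, beside 0.01 over all genes. The corresponding medians were 0.07, -0.02 and -0.01 for anti-TfR:Malat1 and 0.28, -0.05 and 0.05 for Malat1 ASO, each against saline.

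Markers of neurons had mostly positive estimates in cluster 0. All 10 neuron markers had positive estimates for anti-TfR:Malat1 against saline (median 0.22) and 9 of 10 for OTV:Malat1 against saline (median 0.27), with 0 called. For Malat1 ASO against the same saline mice 8 of 10 were positive (median 0.15), also with 0 called. Syt1, a synaptic vesicle protein gene, was 201 to 254 CPM in saline, 228 to 329 in OTV:Malat1 and 235 to 338 in anti-TfR:Malat1. Its part in the other gene estimates was not tested. Medians for the 4 tested microglia markers were -0.19 in OTV:Malat1 against -0.37 in anti-TfR:Malat1, and for the 4 tested astrocyte markers 0.05 and -0.05. Of 8 vascular markers 1 was tested, Dcn, at 0.24 (SE 0.63) in OTV:Malat1.

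UMIs per nucleus were lowest in cluster 0 of OTV:Malat1 mice. The medians were 1612, 1532, 1423 and 1473 in saline and 1285, 1320 and 1250 in OTV:Malat1, with no overlap, a difference of -225 (exact permutation p 0.0571, adjusted 0.114). Leaving out the UMIs of Malat1, the medians were 1277 to 1418 in saline and 1266, 1303 and 1232 in OTV:Malat1, and the difference was -89.5 (exact p 0.114). Without Malat1 UMIs the ranges of the groups therefore overlapped. In neurons the median with Malat1 UMIs included differed by -823 between OTV:Malat1 and saline (exact p 0.286).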

How the data were processed

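Single-nucleus UMI counts per gene and nucleus were deposited by the authors as whole-number counts for 17 mice, with a table of cluster, predicted cell type, batch and doublet call. Prediction and doublet scores in that table are fractions deposited by the authors. Per the submitters' processing notes, Cell Ranger 6.0.1, Seurat 4 and build mm10 were used; the label-transfer tool and the doublet caller are not given in the sources used here. Of the table's columns, 8 were not used. Authors' doublets were kept in the main values.

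UMIs were summed per mouse and tested with edgeR 4.0.16 (R 4.3.3, quasi-likelihood, TMM, filterByExpr, all 17 mice in 1 fit), with Benjamini-Hochberg adjustment over 12874 genes and a threshold of 0.05. DESeq2 1.42.0 was an alternative. Single values per mouse were compared with exact two-sided permutation tests (scipy 1.17.1), adjusted over 4 comparisons. CPM of genes other than Malat1 excludes Malat1 UMIs, a choice made after the data were seen, as was the test of variance over mean. Thinning drew 500 UMIs per nucleus with a fixed seed. Scripts were tested on simulated data.

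The members, gene lists and tests were chosen with earlier results of these data known. Malat1, Neat1, Tfrc and the 4 markers were always to be named. Genes against other clusters were drawn from the 10 largest and 10 smallest ratios among genes of 50 CPM or more with the same sign in every saline mouse. Genes under treatment were drawn from the 3 members of each of 19 lists with the highest saline mean; some genes that these rules name are not reported here. Alternatives covered doublets, normalization, low-count filters, depth, batches, a replicate block, clusters assigned without Malat1 and each mouse left out.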

Additional observations from a re-analysis of the deposited data

Results flagged for a closer look

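In groups of 4 to 6 mice, 36 tests over 12 measures asked whether 1 mouse stood far from the rest, and chance alone gives such a mouse in about 1 of 20. Saline replicate 4 had 28.5% of cluster 0 nuclei low in Malat1, while the lowest saline mouse had 0.846%. Neat1 stood at 1548 CPM in Malat1 ASO replicate 2, whose group began at 1195, and at 861 CPM in anti-TfR:Malat1 replicate 1, whose group reached 1346. St18 stood at 4831 CPM in Malat1 ASO replicate 3, whose group began at 4482.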

How the results depend on the processing

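The edgeR change of Malat1 for OTV:Malat1 against saline ranged from -3.17 to -2.79 over 11 alternatives and that against anti-TfR:Malat1 from -2.65 to -2.18, all past the threshold. Genes other than Malat1 called for OTV:Malat1 against saline numbered 1 without the authors' doublets, 2 over all Oligodendrocytes nuclei, and 0 to 1 with a mouse left out. In the values below, the first is anti-TfR:Malat1 against saline and the second OTV:Malat1 against anti-TfR:Malat1. The single value of Malat1 no longer passed with nuclei assigned to cluster 0 without Malat1 (-0.52 and -2.34), with labels moved within batches (-0.58 and -2.35) or with the replicate block (-0.47 and -2.42); with a mouse left out it ranged from -0.70 to -0.48 and from -2.45 to -2.26 and lost the threshold in 9 of 10 and 9 of 9 fits. The share of low nuclei no longer passed with nuclei assigned without Malat1 (31.0 and 59.5 points), with the 25th percentile (41.5 and 35.6) or within batches (36.9 and 55.6), and ranged from 31.2 to 50.3 and from 50.2 to 57.3 with a mouse left out, again losing the threshold in 9 of 10 and 9 of 9 fits. The difference from the other Oligodendrocytes nuclei passed with nuclei of 1000 or more UMIs (-0.088 and -0.78) and against cluster 17 only (-0.53 and -2.10). It did not pass against cluster 15 only (-0.10 and -0.10) or against cluster 2 only, where it turned sign (0.07 and 0.00069, and 0.07 for OTV:Malat1 against saline). Smaller designs allow only larger p-values; the cause was otherwise not tested. Without Malat1, 50.5% of cluster 0 nuclei were assigned back to it. Of 14 same-numbered pairs of mice, 9 had correlated deviations over 0.1, and 6 of the 7 that shared a deposited batch did. The lowest pair of each comparison lay below that (-0.24 to -0.04), in 3 of the 4 a pair from different batches, so the numbers were not taken as pairs. With the deposited batch as a block instead, edgeR gave -0.60 for anti-TfR:Malat1 against saline (adjusted p 0.264), -3.01 for OTV:Malat1 against saline and -2.41 for the last comparison, and no call changed. The replicate block changed no edgeR call (OTV:Malat1 against saline -3.17).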
